A study of Solanum phureja with 20 samples.

Results

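ERS, the gene described here, codes for an ethylene receptor, and its transcript was followed through a ploidy series of one potato genotype in growing leaflets and growing root tips. Its members are the spots whose single symbol in the platform annotation is ERS (Entrez Gene 102577920): 2 of 32448 spots, or 2 of the 1630 spots with exactly 1 symbol. Both carry the same sequenced clone, so the gene was measured by 1 of 15360 clones, and it had a value on all 20 arrays. ERS was chosen by its leaf values, since an earlier pass over these data had singled it out as higher in tetraploid and diploid than in monoploid leaflets. Those leaf differences are therefore given as a description, without a test.

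The lines were made by doubling the chromosomes of a monoploid from a Solanum phureja background, which had 12 chromosomes, and all share its genotype. They are the monoploid 1x, the diploids 2xR3 and 2xR5, and the tetraploid 4x. A ploidy level other than the diploid is represented by a single line, so ploidy and line cannot be told apart at 1x and 4x. Leaf RNA was taken at day 20 from growing leaflets of 6 plants of a line, and root RNA at day 7 from growing root tips. The chamber was lit for 15 h a day at 23.5 °C, with 9 h of darkness at 15.5 °C and 50% relative humidity, and the plants grown for leaf RNA were fed Hoagland solution daily. The root RNA was amplified, per the labels.

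Ethylene receptors sit in the endoplasmic reticulum membrane and, as worked out in Arabidopsis, are active when no hormone is bound. In that state they keep the kinase CTR1 on, which holds back EIN2 and the response further down; ethylene binding switches the receptors off, so more receptor generally means a less sensitive cell. Receptors of the ERS type, named in Arabidopsis, lack the receiver domain that the ETR1 type carries at its end. In Arabidopsis ethylene restrains the growth of leaf cells and of the root tip, and it raises the transcript of ERS1 itself.

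Each of the 20 two-colour arrays compared 2 lines, with 12 arrays for leaflets (3 replicates) and 8 for root tips (2 replicates). Spots with a value numbered 12403 to 13110 on the 4 arrays of leaf replicate 3 and 16308 to 18629 on the others. Array medians lay within 0.014 of 0. Because each array is centred on its own clones, a log2 ratio says nothing of the RNA per cell. In whole leaflets and root tips, fewer cells of a type and less RNA per cell cannot be told apart. No array held both tissues, so the tissue labels could not be checked through marker levels. All signs take the deposited ratio as the Cy5 line over the Cy3 line; no label states this, and it is likely only because limma writes ratios so. If it were the reverse, each sign would turn and each size would stay.

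In leaflets ERS was lowest in 1x, followed by 2xR3, 2xR5 and 4x, and both closed loops of arrays gave this order. A loop is a ring of 4 arrays in which every line is labelled once with each dye, so the 4 log2 ratios can be solved for the 4 lines while a dye effect of the gene cancels. Relative to the mean of the 4 lines, the log2 level in replicate 1 was -0.38 in 1x, -0.08 in 2xR3, 0.17 in 2xR5 and 0.29 in 4x. In replicate 2 the same levels were -0.34 in 1x, -0.09 in 2xR3, 0.04 in 2xR5 and 0.38 in 4x. The lines did not overlap in these loops: the highest 1x value lay below the lowest 2xR3 value, and likewise up the series. This describes levels on which ERS was chosen, and the share of all clones separated in the same way is not given here. Replicate 3 was made of dye-swapped pairs, and there 4x stood 0.65 above 1x and 2xR5 stood 0.19 above 2xR3.

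**Figure D1:**
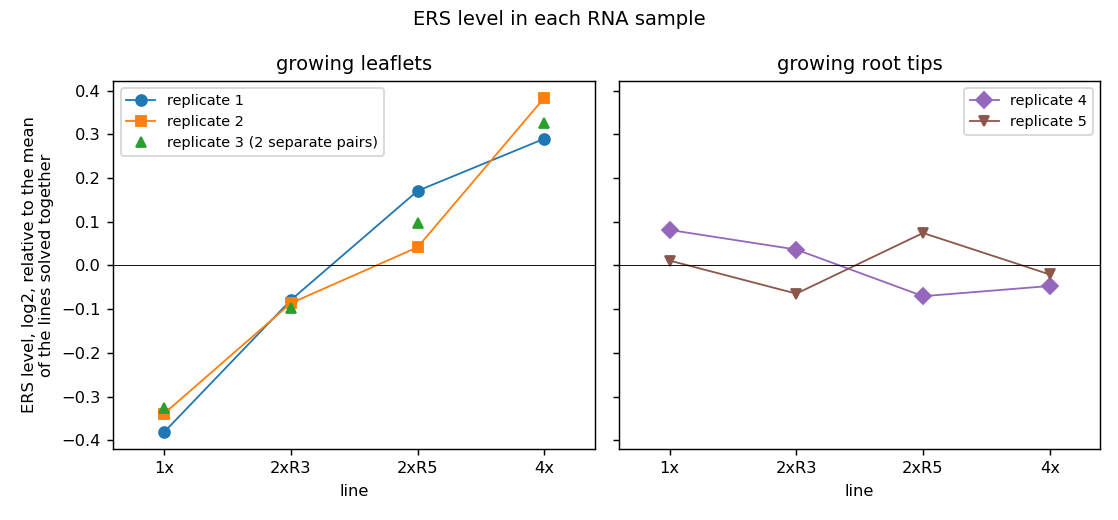
Log2 level of ERS (y axis) in the 4 lines (x axis) for each RNA sample of leaflets (left) and root tips (right), relative to the mean of the lines solved together; symbols mark replicates, and the 2 pairs of leaf replicate 3 are each centred on their own mean. In the leaf loops 4x lies at 0.29 and 0.38 and 1x at -0.38 and -0.34, while the root values stay between -0.07 and 0.08.

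The tetraploid level was 1.61-fold that of the monoploid in leaflets, at 0.68 ± 0.07 (log2, SE, n = 3). The replicates behind it gave 0.67, 0.72 and 0.65, an SD of 0.04, and their 6 single-spot values ran between 0.54 and 0.90. Of the 6001 clones measured on every leaf array, 39.8% passed the limma threshold in this comparison (Benjamini-Hochberg adjusted p under 0.05). Of those clones 61 stood higher in 4x than ERS did, 13 of them among the 631 with a single symbol. Counting lower clones too, 97.3% had a smaller difference in size, and the median size over all clones was 0.18.

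The leaf difference was spread over both doublings, in steps of similar size. The mean of the diploids stood above 1x by 0.36 ± 0.07 (log2, SE, n = 2), with 0.43 in replicate 1 and 0.32 in replicate 2, against a background of 16.6% of clones called. The tetraploid stood above the mean of the diploids by 0.32 ± 0.07 (log2, SE, n = 2), with 0.24 and 0.41 in the same replicates and 3.3% of clones called. The first step minus the second was 0.05, and it was 0.18 in replicate 1 and -0.09 in replicate 2, so the sign of that small difference was not the same in both. The steps share the diploid samples, and both use the same loops. Among 6001 clones, 18, ERS included, had both leaf steps at least as large as those of ERS, and 6 of them had a single symbol.

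Between neighbours in the leaf order the differences were 0.19 to 0.27. The diploid 2xR3 stood above 1x by 0.27 ± 0.07 (log2, SE), with 0.30 and 0.25 in the loops, and each single spot gave between 0.17 and 0.34. The tetraploid stood above 2xR5 by 0.22 ± 0.07 (log2, SE), with 0.12 and 0.34 in the loops. This step was the least even of the 3: in replicate 1, one spot put 4x above 2xR5 by 0.22 and the other by 0.02. Across a wider gap, 4x stood above 2xR3 by 0.41 ± 0.07 and 2xR5 above 1x by 0.46 ± 0.07 (log2, SE).

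The diploid lines have the same ploidy, so their difference shows what separates lines without a doubling. In leaflets 2xR5 stood above 2xR3 by 0.25, 0.13 and 0.19 in replicates 1, 2 and 3, higher in 3 of 3. The fitted difference was 0.19 ± 0.07 (log2, SE, n = 3; 95% interval 0.05 to 0.34) and did not pass in limma, with a Benjamini-Hochberg adjusted p = 0.495 over all clones. In this comparison 0% of 6001 clones were called by limma, and 518 had an unadjusted p under 0.05. A fit to the single arrays with no replicate block, the array-level fit, called 0 as well. Single lines 1 doubling apart differed in leaflets by 0.27 (2xR3 minus 1x), 0.46 (2xR5 minus 1x), 0.22 (4x minus 2xR5) and 0.41 (4x minus 2xR3). Each had an SE of 0.07 (log2). Between 4x and 1x, 2 doublings apart, the leaf difference was 0.68.

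**Figure D2:**
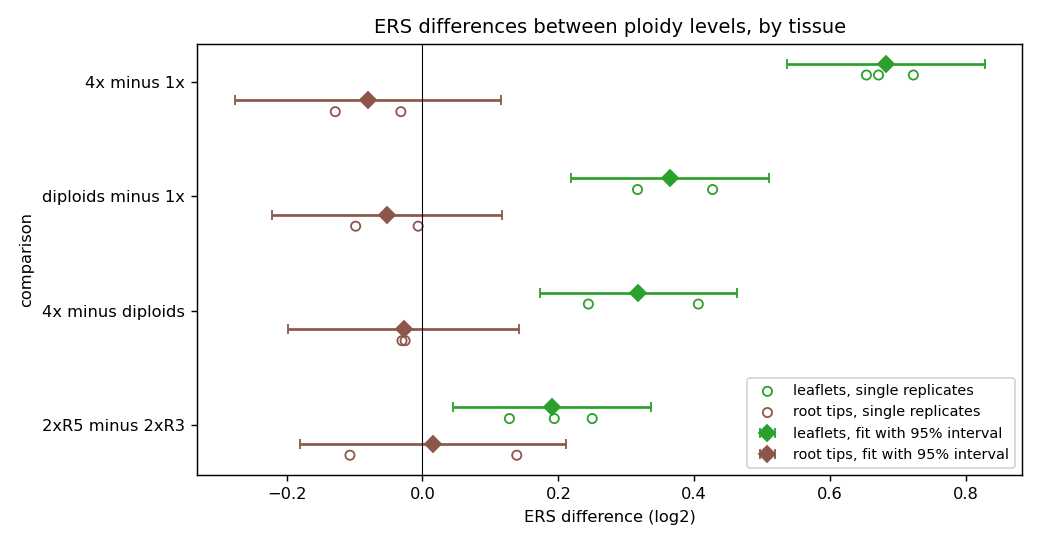
ERS log2 difference (x axis) in 4 comparisons (y axis) for leaflets (green) and root tips (brown); diamonds with bars are the limma estimate and its 95% interval, open circles the single replicates. Leaf estimates run from 0.19 to 0.68 and root estimates from -0.08 to 0.02. The intervals of the leaf comparisons with 1x or 4x describe the spread and are not a test, since ERS was chosen on them.

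In root tips ERS showed no such order. Relative to the mean of the 4 lines, the log2 level in replicate 4 was 0.08 in 1x, 0.04 in 2xR3, -0.07 in 2xR5 and -0.05 in 4x. In replicate 5 it was 0.01 in 1x, -0.06 in 2xR3, 0.07 in 2xR5 and -0.02 in 4x. The lines overlapped, and 2xR5 was the lowest line in one replicate and the highest in the other. The full ranking of the 4 lines was not shared by both root replicates, though 1x stood above 2xR3 and above 4x in both.

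None of the 4 root comparisons of ERS passed in limma. The tetraploid differed from the monoploid by -0.08 ± 0.08 (log2, SE, n = 2), which did not pass in limma (adjusted p = 0.477). It was -0.13 in replicate 4 and -0.03 in replicate 5. The 95% interval of -0.28 to 0.12 corresponds to 0.83-fold to 1.08-fold. Of the 8245 clones measured on every root array, 30.1% were called in this comparison, and 23.2% had a smaller difference than ERS.

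The mean of the diploids differed from 1x in root tips by -0.05 ± 0.07 (SE, n = 2, on the log2 scale; 95% interval -0.22 to 0.12), with a limma adjusted p = 0.566. It was -0.10 in replicate 4 and -0.01 in replicate 5, while 45.3% of clones were called and 13.3% had a smaller difference. The tetraploid differed from the mean of the diploids by -0.03 ± 0.07 (log2, SE, n = 2; 95% interval -0.20 to 0.14; limma, adjusted p = 0.972), with -0.03 in both replicates. Between the diploids, 2xR5 minus 2xR3 was 0.02 ± 0.08 (log2, SE, n = 2; 95% interval -0.18 to 0.21; limma, adjusted p = 0.998), from -0.11 in replicate 4 and 0.14 in replicate 5. Limma called 0% of clones in each of these last 2 root comparisons, with 582 clones between 4x and the diploids and 301 between the diploids at an unadjusted p under 0.05. The array-level fit called 57 and 2. The 2 replicates limit what the root data can show, and they remain compatible with any root difference within these intervals.

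The arrays themselves show what each leaf value rests on. In leaf replicate 1 the clone's deposited log2 ratio was 0.55 for 2xR3 over 1x, 0.62 for 4x over 2xR3, 0.13 for 2xR5 over 4x and -0.30 for 1x over 2xR5. Replicate 2 ran the ring the other way round, with the dyes exchanged, and gave 0.63 for 2xR5 over 1x, 0.59 for 4x over 2xR5, -0.22 for 2xR3 over 4x and -0.0005 for 1x over 2xR3. The unsolved ratios of one pair of lines thus differed by dye: with 2xR3 in Cy5 it exceeded 1x by 0.55, and with 2xR3 in Cy3 the array showed no difference.

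The dye effect of the clone is the mean ratio around a ring, where the lines cancel. It was 0.25 in replicate 1 and 0.25 in replicate 2, towards Cy5, and larger in size than that of 86.2% and 90.8% of clones. In the dye-swapped pairs of replicate 3 it was 0.02 for 4x with 1x and 0.01 for 2xR5 with 2xR3. In root tips it was -0.01 in replicates 4 and 5. With the dye effect taken off, the replicate 1 array of 2xR5 over 4x stood at -0.12, which turned its sign.

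Over leaf replicates the dye effect averaged 0.17 ± 0.06 (log2, SE, n = 3) and did not pass in limma (adjusted p = 0.417). Limma called 0% of clones for a dye effect in leaflets and 0% in root tips, with 697 and 773 at an unadjusted p under 0.05. The dye effect of ERS in root tips was -0.01 ± 0.02 (log2, SE, n = 2; limma, adjusted p = 0.856). Without replicate 3 the leaf dye effect was 0.25 (limma, adjusted p = 4.48e-04), over a range of adjusted p of 4.48e-04 to 0.9998 across the alternatives. The 0% of clones called in leaflets belongs to the fit with replicate 3, and the share called without it is not given here. A closed ring of 4 arrays is fitted exactly by 3 line differences and 1 dye effect, so it leaves no remainder against which its own values could be checked.

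**Figure D3:**
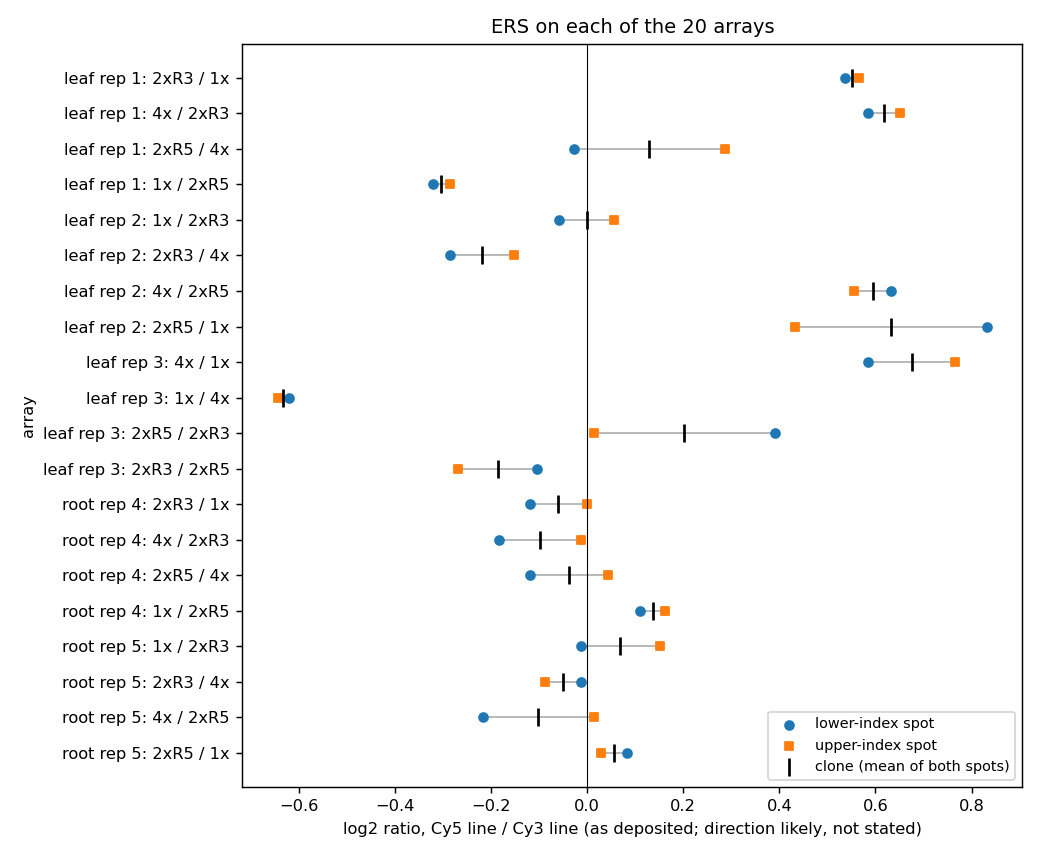
Deposited log2 ratio of ERS (x axis, Cy5 line over Cy3 line) on each of the 20 arrays (y axis, with tissue, replicate and lines), for the lower-numbered spot (circle), the higher-numbered spot (square) and their mean (bar). Leaf ratios reach 0.68 in size and root ratios 0.14.

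The 2 ERS spots gave a second reading of each array. On the leaf arrays they differed by a median of 0.12 and at most 0.40, with an SD of 0.14 for a single spot, and on the root arrays by a median of 0.14 and at most 0.23, with an SD of 0.10. They had the same sign on 10 of 12 leaf arrays but on 4 of 8 root arrays, where the clone's ratios were small, with a median size of 0.06 against 0.43 in leaflets. Across the 12 leaf arrays the spots correlated at r = 0.892 and across the 8 root arrays at r = 0.447, as a description, since both spots share array, dyes and RNA. Solved from 1 spot at a time, 4x minus 1x in leaflets was 0.75 with the lower-numbered and 0.62 with the higher-numbered spot. In root tips it was -0.10 and -0.06.

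The arrays that compare 4x and 1x directly exist in leaf replicate 3 alone. With 4x in Cy5 the spots read 0.59 and 0.77, and with 1x in Cy5 they read -0.62 and -0.64. The sign thus turned with the dyes on both spots, and the sizes overlapped.

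Other genes of the ethylene pathway were sparse among the named clones. A list of the steps from methionine to ethylene, the receptors, the relay and the response factors matched 3 symbols: ERS itself, METK1 with 9 clones and ARD with 1. No further receptor, and no CTR1, EIN2, EIN3, ACC synthase or ACC oxidase, was among the single symbols other than LOC numbers, which come without descriptions. METK1 makes S-adenosylmethionine, from which the ethylene precursor ACC is formed, and ARD, acireductone dioxygenase, recycles the methylthio group left over from that step to methionine.

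In leaflets METK1 rose in 4x against 1x in 6 of 8 clones measured on every array, the other 2 not passing, beside a background of 39.8% of clones called in either direction. Its clones ranged from 0.11 to 0.37 with a median of 0.26 (log2), all below the 0.68 of ERS. The clones share a gene and are not separate replicates. Of the 9 METK1 and ARD clones together 0 passed in limma without leaf replicate 2, where 3.23% of all clones were called, and 3 passed without leaf replicate 1, where 20.6% were called. The highest clone read 0.19, 0.61 and 0.30 in replicates 1, 2 and 3. ARD stood at 0.03 ± 0.08 (log2, SE, n = 3; limma, adjusted p = 0.790) between 4x and 1x.

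By the leaf estimates, the diploids stood above both 1x and 4x for ARD, and between 1x and 4x for the METK1 clones, as for ERS. ARD rose in the diploids against 1x by 0.28 ± 0.08 (log2, SE, n = 2) with a limma adjusted p = 0.045. Its call was lost with scaled arrays and without any 1 of the replicates. The 8 METK1 clones ranged from 0.02 to 0.16 in that comparison and 0 passed, with a lowest limma adjusted p of 0.179. Of all clones 16.6% were called there. Between 4x and the diploids ARD stood at -0.25 (limma, adjusted p = 0.114) and METK1 between 0.03 and 0.21. Of these 9 clones 0 passed, beside 3.3% of all clones.

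In root tips 0 of 10 METK1 and ARD clones passed in limma between 4x and 1x, beside 30.1% of all clones, with METK1 between -0.05 and 0.22 and ARD at -0.06. Without replicate 5, 1 of 9 passed, where 12.6% of all clones were called. Against 1x the diploids were higher in 2 of 9 METK1 clones, by 0.38 and 0.37, with 45.3% of all clones called. The other 7 stood between 0.11 and 0.28 and did not pass. Of the 10 METK1 and ARD clones 0 passed in limma with scaled arrays, where 7.98% of all clones were called, and 7 passed in the array-level fit, where 59.2% were called. Of the 9 clones also complete in leaflets, 1 passed without replicate 4 and 1 without replicate 5, where 18.9% and 27.8% of all clones were called. Root METK1 differed between the diploids by -0.51 to -0.44 over its 9 clones without passing in any (limma, adjusted p = 0.998 for each), while ERS stood at 0.02 there.

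**Figure D4:**
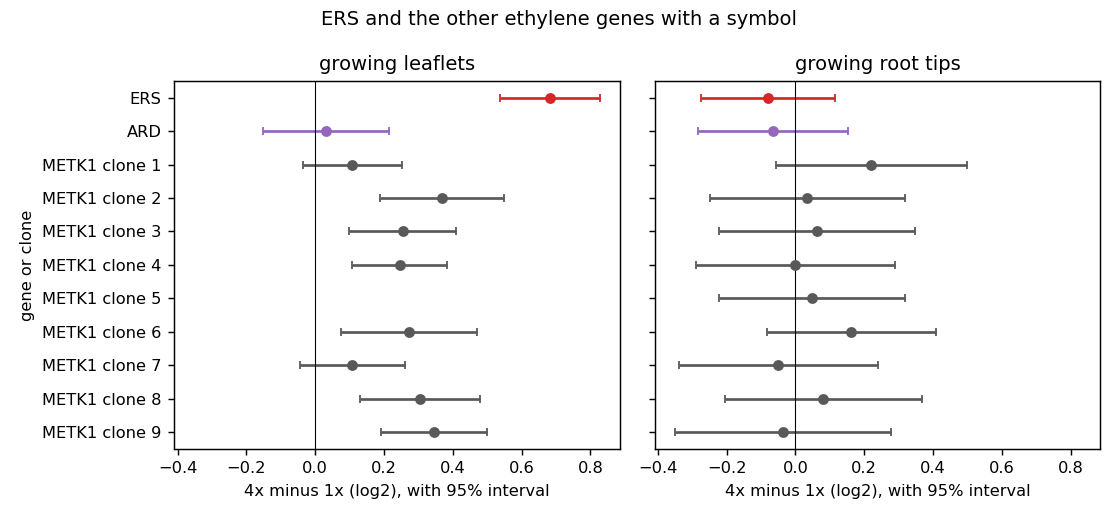
Log2 difference of 4x minus 1x (x axis) with its 95% limma interval for ERS, ARD and the METK1 clones (y axis) in leaflets (left) and root tips (right); METK1 clone 5 had no complete leaf data. In leaflets ERS stands at 0.68 and the METK1 clones between 0.11 and 0.37; in root tips all lie between -0.08 and 0.22.

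The one leaf marker on the list fixed for leaf tissue that had a clone with a single symbol, PSBR, a photosystem II subunit, was measured in leaflets by 2 clones. They stood at -0.26 and -0.21 in 4x against 1x (limma, adjusted p = 0.054 and 0.078), where 39.8% of all clones were called. In 4x against the diploids they stood at -0.36 and -0.38. There the second passed (limma, adjusted p = 0.042), beside 3.3% of all clones. The diploids stood at 0.11 and 0.17 against 1x, without passing, where 16.6% of all clones were called. In root tips 2 clones were measured, one of them also complete in leaflets, and stood at 0.07 and -0.09 in 4x against 1x. Its part in the leaf differences of ERS was not tested.

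Genes with a pattern like that of ERS were ranked by Pearson r over the 20 RNA-sample levels, 12 of leaflets and 8 of root tips, each centred within its loop or pair. The comparison covered 5120 clones complete in both tissues, 456 of them with a single symbol, for 298 genes. All clones share the same RNA samples and lines, so r is a description. The leaf levels of ERS, on which it was chosen, spread wider than its root levels and so weigh more in r. Its median was 0.05, and 19 clones reached 0.90 while 20 lay at -0.90 or lower.

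LOC102601725 was most like ERS of the named genes, at r = 0.953, and the best clone of LOC102577726 and LOC102596783 followed at 0.936 and 0.928. Over the leaf levels alone these clones had r of 0.99, 0.95 and 0.95, and over the root levels alone -0.18, 0.48 and 0.08. In leaflets the LOC102601725 clone stood above 1x by 0.58 in 4x and by 0.35 in the diploids. In root tips its differences from 1x were 0.02 in 4x and -0.01 in the diploids. Other clones of LOC102601725 went down to r = -0.04, so the likeness is that of a clone and not of all 6 clones of the gene. LOC102596783 stood at 1.00 in 4x against 1x in leaflets and at -0.02 in root tips. Its leaf order was not that of ERS throughout: in replicate 1 its level was 0.31 in 2xR5 and 0.29 in 4x, and in replicate 3 2xR5 lay below 2xR3.

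The next were LOC102582822 (r = 0.891), GBSS (0.890), LOC102595604 (0.870), PHA2 (0.868), LOC102587932 (0.866), SRE1A (0.859) and LOC102577532 (0.854). Over the root levels alone their r ran from -0.36 (SRE1A) to 0.67 (GBSS). GBSS codes for the granule-bound starch synthase, and both of its clones lay close together, at 0.887 and 0.890. PHA2 codes for a plasma membrane proton pump. In leaflets it stood at 0.72 in 4x against 1x, near ERS, but in root tips at 0.25 where ERS stood at -0.08. SRE1A differed more in root tips, with 0.41 in the diploids against 1x. LOC102595604 had another clone at r = -0.730.

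Least like ERS were LOC102597208 (r = -0.915), LOC102584908 (-0.912), CAT1, a catalase (-0.882), LOC102593129 (-0.882) and LOC102599440 (-0.881). LOC102597208 stood at -0.62 in 4x against 1x in leaflets and at 0.01 in root tips. The other CAT1 clone had r = 0.342.

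**Figure D5:**
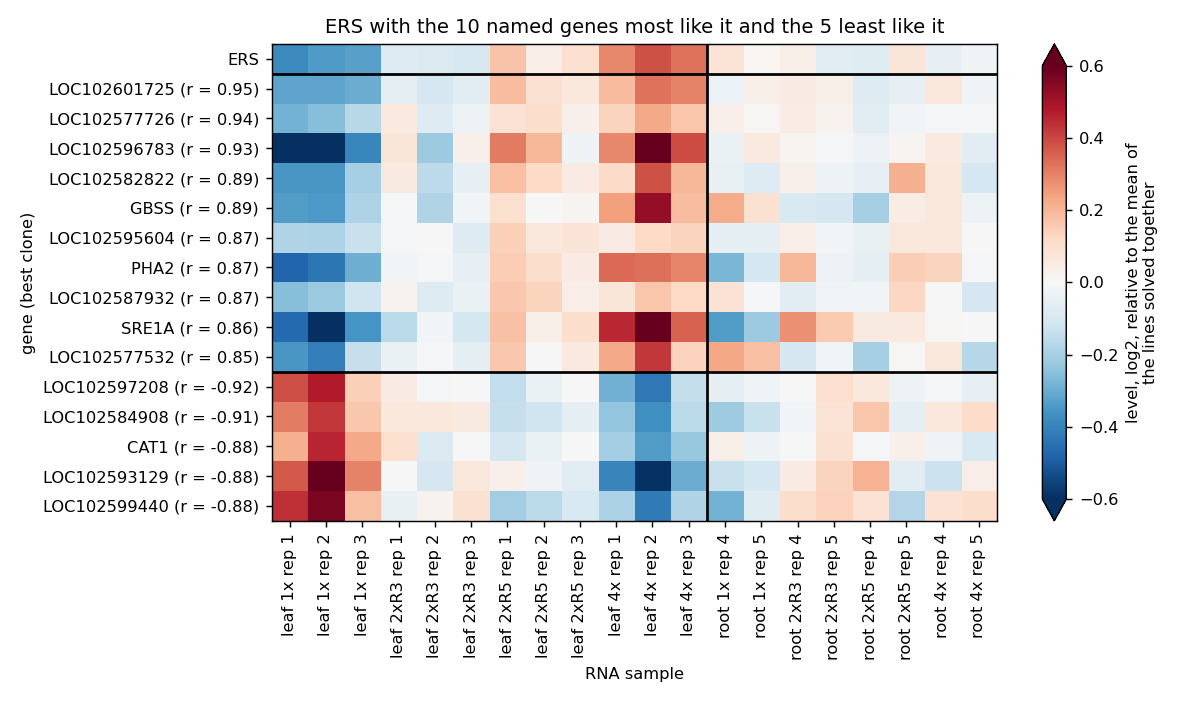
Log2 level, relative to the mean of the lines solved together (colour, clipped at 0.6 in size), of ERS, the 10 named genes most like it and the 5 least like it (y axis, best clone of each) in the 20 RNA samples (x axis). The genes were picked by their r with ERS. In leaflets the upper genes are higher in 4x than in 1x and the lower 5 the other way round. In leaf replicate 1, LOC102596783, LOC102582822, LOC102595604 and LOC102587932 are highest in 2xR5, and LOC102599440 is lowest there. Root levels show no common order.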

How the data were processed

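The deposited values are log2 ratios between the Cy5 and Cy3 dyes, one per spot, from 20 spotted arrays, and the submitters' processing notes name limma. Its version, the background correction, the within-array method and the reason for empty spots are not given in the sources used here. No intensities were used, so dim or saturated spots could not be examined. Symbols are those of GEO's annotation of the platform and may be outdated.

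The duplicate spots of a clone were paired through the print layout, which placed all 905 accessions with 2 annotated spots on a pair, and averaged. Each ring of 4 arrays was solved by least squares for its 4 lines, and dye-swapped arrays were averaged. The resulting levels entered lmFit and eBayes (limma 3.58.1 under R 4.3.3), with line as factor and replicate as a block, tissues apart. Ratios exist only within a replicate, so the block follows from the design; the 2 pairs of leaf replicate 3 were separate blocks. This left 5 residual degrees of freedom in leaflets and 3 in root tips. With eBayes, which draws the spread of a clone towards that of all clones, ERS had 11.08 and 6.06. Leaf replicate 3 informs comparisons with the mean of the diploids only by its 4x to 1x difference. Its 2xR5 to 2xR3 difference enters the comparison between the diploids and those of a single diploid with 1x or 4x. Adjusted p-values are Benjamini-Hochberg over the 6001 leaf or 8245 root clones with a value on every array, with 0.05 as threshold. The labels call the replicates biological without saying which plants made up which replicate. The SEs and p-values reflect only how far these RNA samples spread, in the clone itself and, through eBayes, over all clones. The procedure was also run on simulated data, with noise per RNA sample and a dye effect constant over the arrays of a tissue. Noise of single arrays and a dye effect that varies by replicate were not simulated, so that run does not check them. Alternatives were scaled arrays, robust eBayes, a fit to single arrays with no replicate block, single spots, a looser filter on missing values, the reversed ratio and leaving out each replicate.

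The gene and the ethylene list were chosen with earlier results of these data known. The named genes were ERS, all clones on that list, and the 10 most and 5 least correlated named genes, each by its best clone.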

Additional observations from a re-analysis of the deposited data

Results flagged for a closer look

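In 3 comparisons every leaf replicate of ERS lay above 0 and every root replicate below 0, though in the comparisons that use the diploids single root spots fell on either side. The leaf minus root difference was 0.76 (log2) for 4x minus 1x, from 0.68 in leaflets and -0.08 in root tips. It was 0.42 for the diploids minus 1x, from 0.36 and -0.05, and 0.35 for 4x minus the diploids, from 0.32 and -0.03. The 3 comparisons are not separate, since 4x minus 1x is the sum of the other 2. The share of all clones with the same signs in both tissues is not given here. The difference between the tissues was not tested, since ERS was chosen on its leaf values. Tissue went with day (20 in leaflets, 7 in root tips) and with separate replicates, and the root RNA was amplified. These cannot be told apart from tissue. None of the root values passed in limma.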

How the results depend on the processing

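ERS kept its direction in the 4 leaf comparisons under every alternative except the reversed reading of the ratio. Between 4x and 1x in leaflets it stood at 0.61 with arrays scaled to a common spread and at 0.75 and 0.62 with a single spot, and it ran over 0.66 to 0.70 with 1 replicate left out. The diploids minus 1x ran over 0.30 to 0.42 there, 4x minus the diploids over 0.24 to 0.39, and 2xR5 minus 2xR3 over 0.16 to 0.22. In root tips, leaving out 1 replicate gave -0.13 to -0.03 for 4x minus 1x, -0.10 to -0.01 for the diploids minus 1x, -0.03 for 4x minus the diploids (-0.0300 to -0.0255) and -0.11 to 0.14 for 2xR5 minus 2xR3, and 4x minus the diploids was 0.0115 with the higher-numbered spot. No root comparison of ERS passed under any alternative, with limma adjusted p of 0.387 or more. Read as Cy3 over Cy5, the values were -0.68, -0.36, -0.32 and -0.19 in leaflets and 0.08, 0.052, 0.028 and -0.016 in root tips. An array-level fit with no replicate block gave 0.68 between 4x and 1x in leaflets and changed no call of ERS in root tips. The dye effect was 0.13 to 0.25 in leaflets and -0.01 (-0.0146 to -0.0066) in root tips with 1 replicate left out, where root values rest on a single loop, and in root tips -0.059 with the lower-numbered and 0.037 with the higher-numbered spot.

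The number of clones called moved more. With scaled arrays it was 655 for the diploids minus 1x and 112 for 4x minus the diploids in leaflets (994 and 198 without scaling), and in root tips 199 for 4x minus 1x, 658 for the diploids minus 1x and 11 for 4x minus the diploids (2481, 3735 and 0). The share of higher calls was then 61.3% against 49.3% for 4x minus 1x and 65.3% against 46.1% for the diploids minus 1x in root tips. With no replicate block 343 clones were called for 4x minus the diploids in leaflets and 57 and 2 for 4x minus the diploids and 2xR5 minus 2xR3 in root tips; with values needed on 75% of arrays the first 2 were 324 and 36. Leaving out 1 replicate gave 194 (without replicate 2) to 2159 for 4x minus 1x, 11 to 988 for the diploids minus 1x, 0 to 520 for 4x minus the diploids and 0 to 4 for 2xR5 minus 2xR3 in leaflets. In root tips it gave 646 to 716, 970 to 1424, 15 to 50 and 1 to 2, with the spread of leaflets lent to the single loop and 5121 clones tested. The cause of these shifts was not tested. Of the 10 genes most like ERS, 8 were shared with a ranking by Spearman rho, 5 with leaf values alone and 0 with root values alone. The number of arrays limits the precision, and signal over background is unknown.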
